A study of Mus musculus with 26 samples.

Results

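The 9 genes described here encode transcription factors of the heart and proteins that act with them: Hand1, Hand2, Gata4, Gata6, Mef2c, Mef2d, Zfpm1, Foxc2 and Smyd1. Members were chosen by name, as every probe set that the array annotation gives to 1 of these genes. The annotation names 6137 genes in all, and the 9 genes were represented by 15 of the 13179 probe sets on 2 array designs, 11 of 6584 on the A array and 4 of 6595 on the B array. No member probe set was annotated to a further gene, and the annotation names 0 probe sets for Nkx2-5, so the altered gene itself was not measured here. The samples were entire mouse hearts at embryonic day 12.5, and each of 13 hearts was hybridised to both designs. All came from a mouse model of congenital heart disease whose Nkx2.5, a homeodomain factor, lacks its NK2-specific domain in the deleted allele. The 5 wild-type (wt) hearts carry no deleted allele, the 4 heterozygous (het) hearts carry 1, and the 4 null hearts carry the deletion on both alleles. Strain, sex, litter and the way the allele was made are not given in the sources used here, so p-values measure only the spread between these hearts, which may be partly technical.

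Heart development uses a small set of transcription factors that bind DNA together and regulate one another. Hand1 and Hand2 are basic helix-loop-helix (bHLH) proteins that pair with E proteins on E-box sites. Gata4 and Gata6 are zinc-finger proteins that bind GATA sites and partner with Nkx2.5, and Zfpm1 (FOG-1) is a cofactor of GATA factors. Mef2c and Mef2d belong to the MADS-box family and bind A/T-rich sites in muscle genes. Foxc2 is a forkhead factor of the outflow tract, vessels and mesenchyme. Smyd1 (Bop) is a muscle-restricted histone methyltransferase needed for ventricular growth and for Hand2 expression.

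The sequences before the start sites of the members with the widest differences between null and wt hearts are shown because they are where factors of this kind could bind. RefSeq windows of 250 bases before the start (GRCm38.p6) matched 5 of the 9 genes, with 7 windows. Capitals mark matches on either strand to GATA, to the E-box CANNTG and to the NK2 core TNAAGTG, and sites of MEF2 and the CArG box were also searched. The windows lie at chr8:57320733-57320982 on the plus strand (Hand2), chr6:71262282-71262531 on the minus strand (Smyd1) and chr3:88142122-88142371 on the plus strand (Mef2d).
Hand2: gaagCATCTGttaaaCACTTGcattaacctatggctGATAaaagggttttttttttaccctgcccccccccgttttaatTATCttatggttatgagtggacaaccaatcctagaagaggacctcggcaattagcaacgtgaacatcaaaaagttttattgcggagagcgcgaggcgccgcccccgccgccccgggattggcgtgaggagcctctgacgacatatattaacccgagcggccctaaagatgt
Smyd1: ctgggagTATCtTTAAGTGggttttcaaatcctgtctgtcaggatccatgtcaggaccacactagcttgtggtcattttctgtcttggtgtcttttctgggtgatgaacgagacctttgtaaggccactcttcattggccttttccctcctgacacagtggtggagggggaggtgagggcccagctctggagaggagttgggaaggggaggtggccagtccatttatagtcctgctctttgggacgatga
Mef2d: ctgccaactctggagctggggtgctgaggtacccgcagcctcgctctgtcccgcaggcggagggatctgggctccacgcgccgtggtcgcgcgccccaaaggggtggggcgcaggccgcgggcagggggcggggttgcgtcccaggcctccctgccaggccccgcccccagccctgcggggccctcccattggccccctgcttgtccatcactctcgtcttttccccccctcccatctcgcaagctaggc
The Hand2 window held 2 GATA matches, 214 and 171 bases before the start, and 2 E-boxes, 246 and 235 bases before it. The Smyd1 window held a GATA match 243 bases and an NK2 core 238 bases before the start, with 1 base between them and no overlap. The Mef2d window held none of the motifs, and neither did that of Zfpm1, while each of the 3 Mef2c windows held 2 GATA matches. GATA occurred in 53.6% of 32851 windows of the same length, an E-box in 66.2%, the NK2 core in 10.1%, a MEF2 site in 2.92% and a CArG box in 1.47%. These matches describe letters and not bound sites.

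Intensities are deposited values on a linear scale that can fall below 0. A floor of 2 times the noise of each table was used, 887 on the A array and 1373 on the B array, and a value above it is called detected. Blank cells took up to 81.3% of an A array and up to 80.6% of a B array, mostly on wt 1, het 6 and het N2 for A and on null 3, wt 9 and wt N1 for B, so most members were measured in fewer than 13 hearts. The hearts were grouped here by number into 3 series, 1 to 6 (6 hearts), 7 to 12 (4 hearts) and N (3 hearts). Each series holds all 3 genotypes. The labels mark no break between hearts 6 and 7 and do not say that N hearts came later. Calling hearts 7 to 12 and N later, and hearts 1 to 6 earlier, is a choice made here. As a check of the tissue, all 11 probe sets of the cardiomyocyte markers were above the floor in every heart with a value, against 6 of 115 values of liver markers and 1 of 39 values of foregut and lung markers. Precision is limited by the number of arrays.

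Detection came first. Testing required a value above the floor on 4 or more arrays and 2 or more values per genotype, which held for 12 of the 15 members (80.0%, against 34.4% of all probe sets) and for at least 1 probe set of each of the 9 genes. Of the 15, 5 were above the floor in every heart with a value: both of Gata6, the second of Mef2d, the second of Zfpm1 and the first of Smyd1. Only Mef2c on the A array and Foxc2 had values in all 13 hearts. The 3 untested members were a Mef2c probe set on B and 2 Mef2d probe sets on A. Because a probe set can pass this filter through 1 genotype, the tested members are not a sample of all members. In the naming of these arrays, the suffix s marks probes that can match several transcripts, which applies to Hand1, Gata4, Gata6 on B, Mef2c on A, Foxc2 and both Smyd1 probe sets. The specificity of no probe set was checked here, which includes those with the suffix g (aa408983_rc_g_at of Mef2d and AF006492_g_at of Zfpm1).

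Across genotypes, no member passed the test between any pair of genotypes. Null against wt hearts addresses the loss of the domain from both alleles. In limma, 0 of 12 members had an adjusted p under 0.05, against 0.0223% of all 4494 tested probe sets (1 probe set), and 0 of 12 had an unadjusted p under 0.05, against 2.4% of all. The signs were 5 higher and 7 lower in null hearts, with a median log2 difference of -0.090 beside -0.0063 over all tested probe sets. The values ranged from -0.87 for a Smyd1 probe set to 0.62 for Hand2. Signs of Hand1, Foxc2 and the first Zfpm1 probe set turned under another scaling or floor. Het against wt hearts gave 0 of 12 members called, against 0.0% of all, and 1 of 12 with an unadjusted p under 0.05, against 3.38%. There 3 members were higher and 9 lower, with a median of -0.11 beside -0.014 over all. Null against het hearts gave 0 of 12 called, against 0.0%, and 2 of 12 with an unadjusted p under 0.05, against 5.79%, 1 of them Mef2c, whose het hearts were all under the floor, with 5 higher, 7 lower and a median of -0.099 beside 0.019. The comparisons share hearts, so their values are not independent of each other.

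**Figure D1:**
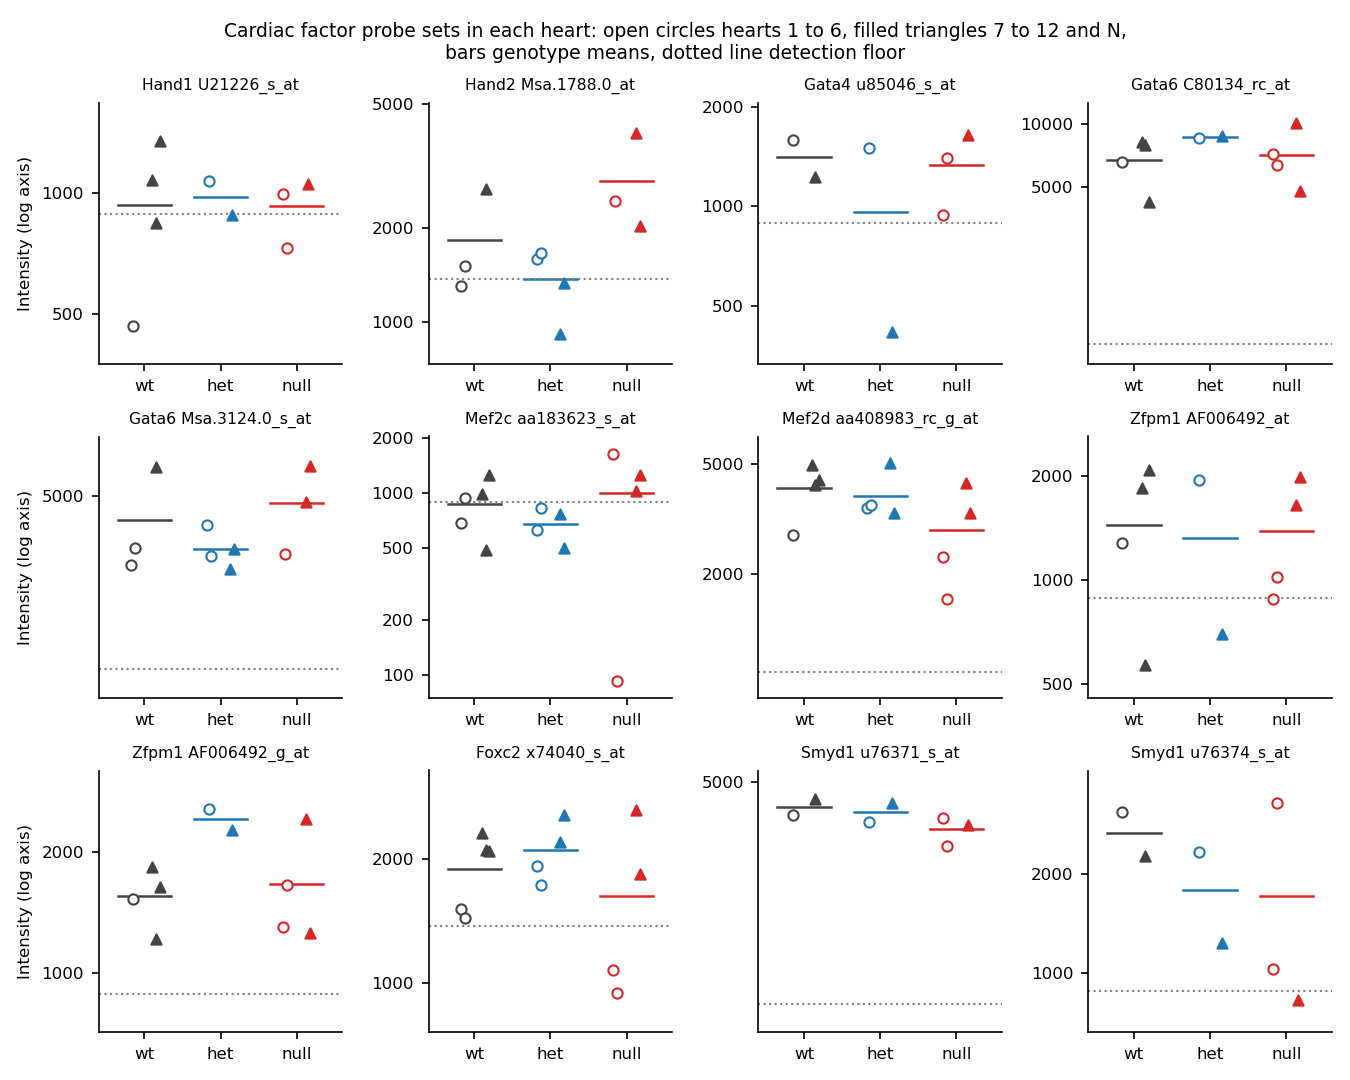
Intensity of each tested member probe set (y axis, log scale, arbitrary units) in each heart with a value, by genotype (x axis). Open circles are hearts 1 to 6, filled triangles hearts 7 to 12 and N, bars genotype means and dotted lines the floor (887 on A, 1373 on B). The null hearts lie above all het hearts for Hand2 (2036 to 4043 against 918 to 1662), and the genotypes overlap for most other members.

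Hand2, the bHLH factor of the right ventricle and second heart field, had the largest positive difference in null hearts. In wt hearts 1, 2 and 7 its intensity was 1309, 1520 and 2674. In het hearts 5, 6, 12 and N2 it was 1600, 1662, 918 and 1342. In null hearts 4, 8 and N3 it was 2445, 4043 and 2036. All 3 null hearts were above all 4 het hearts and above 2 of the 3 wt hearts, while wt heart 7 lay inside the null range. The log2 difference between null and het hearts was 0.86 ± 0.27 (SE), with p = 0.00745 and an adjusted p of 0.774 in limma. Het hearts 12 and N2 and wt heart 1 lay under the floor and had been raised to it before the fits. The fitted Hand2 differences, their SE and p therefore rest in part on the floor. On the deposited scale, null hearts averaged 2841 ± 1061 (SD, n = 3) and het hearts 1381 ± 338 (SD, n = 4), with p = 0.0286 in an exact two-sided permutation test, the smallest p these numbers allow, and an adjusted p of 0.891 over all probe sets. Of the 12 members, Hand2 was the 1 whose null and het hearts did not overlap, against 8.06% of all probe sets, which have differing numbers of hearts. Null against wt gave 0.62 ± 0.29 (p = 0.053, adjusted p = 0.9999 in limma), and het against wt -0.25 ± 0.27. Without null heart 8 the null to wt difference was 0.33. Within hearts 1 to 6 the null to wt difference was 0.76 (1 null against 2 wt hearts) and within hearts 7 to 12 it was 0.60 (1 against 1), and in series N no wt heart had a value. In hearts 7 to 12 and N together it was 0.10 (2 null against 1 wt heart).

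Hand1, the bHLH factor of the left ventricle and outer curvature, was measured close to the floor. Its intensities were 468, 1080, 845 and 1349 in wt hearts 2, 7, 9 and N1, 1074 and 881 in het hearts 5 and 12, and 998, 732 and 1056 in null hearts 3, 4 and N3. Only 5 of 9 values exceeded the floor, and the genotypes overlapped throughout. The fitted log2 differences were -0.08 ± 0.17 for null against wt, -0.08 ± 0.19 for het against wt and 0.0022 ± 0.20 for null against het.

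Gata4, the GATA factor that partners with Nkx2.5 at many cardiac promoters, had values in 7 hearts. They were 1586 and 1223 in wt hearts 2 and N1, 1502 and 415 in het hearts 5 and 12, and 940, 1395 and 1645 in null hearts 3, 4 and N3. The null hearts spanned both wt hearts, and het heart 12 alone was below the floor. The null to wt difference was -0.11 ± 0.31 on the log2 scale.

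Gata6, a related GATA factor, was detected in every heart measured by both of its probe sets. On the A array its intensities were 6604, 8236, 7932 and 4256 in wt hearts 2, 7, 9 and N1, 8530 and 8787 in het hearts 5 and 12, and 7142, 6350, 10119 and 4774 in null hearts 3, 4, 8 and N3. Both het hearts were above all 4 wt hearts, the null hearts spanned the wt range, and the N hearts were the lowest of the wt and null genotypes. On the B array they were 2978, 3391 and 6192 in wt hearts 1, 2 and 7, 4014, 3186, 2891 and 3356 in het hearts 5, 6, 12 and N2, and 3247, 4793 and 6248 in null hearts 4, 8 and N3. Here het hearts had the lowest mean, so the probe sets placed het hearts at opposite ends. The het to wt difference was 0.40 ± 0.29 by the first and -0.25 ± 0.29 by the second, and null against wt was 0.06 ± 0.24 and 0.21 ± 0.31. Over the 7 hearts with both values, Pearson's r between them was -0.19 (permutation p = 0.675, adjusted p = 0.675) and Spearman's rho -0.25 (permutation p = 0.595, adjusted p = 0.744).

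Zfpm1, the GATA cofactor FOG-1, was measured by 2 probe sets that carry the same accession. By AF006492_g_at the wt hearts 2, 7, 9 and N1 were at 1531, 1833, 1213 and 1639, het hearts 5 and 12 at 2559 and 2272, and null hearts 3, 4, 8 and N3 at 1303, 1660, 2427 and 1259. Both het hearts were above every wt heart, and null heart 8 lay between the het hearts. The het to wt difference of 0.65 ± 0.29 had p = 0.0406 and an adjusted p of 0.981 in limma. The exact permutation test could not go below p = 0.0667 with 2 against 4 hearts, and gave that value. Zfpm1 by this probe set and Gata6 on A were the 2 of 12 members whose het and wt hearts did not overlap, against 5.94% of all probe sets. That share pools probe sets with differing numbers of hearts, and small groups separate more easily. Each of the 2 separations rests on het hearts 5 and 12. By AF006492_at the same het hearts were at 1952 and 698, wt hearts 2, 7, 9 and N1 at 1284, 1854, 567.7 and 2089, and null hearts 3, 4, 8 and N3 at 882, 1023, 1652 and 1996. That probe set showed no such separation (het against wt -0.14 ± 0.41). The correlation between both over 10 hearts was 0.26 (Pearson, permutation p = 0.466, adjusted p = 0.594) and 0.22 (Spearman, permutation p = 0.539, adjusted p = 0.744). GATA factors and this cofactor are also used in blood cells. Of the erythroid markers, 6 of 7 tested genes were higher in null than wt hearts (median 0.32, 0 called). The median was 0.17 under quantile scaling and 0.56 without the N hearts. Between het and wt hearts, the comparison of the separation above, 5 of 7 were higher (median 0.019, 0 called). That median was 0.19 with quantile scaling and 0.21 without the N hearts. Gata1 was at or under the floor in every heart. The part of blood cells in these values was not tested, and in entire hearts fewer cells of a type and less RNA per cell cannot be told apart.

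Mef2c, the MEF2 factor required for looping and right ventricle formation, was near or below the floor on both arrays. On A (aa183623_s_at) wt hearts 1, 2, 7, 9 and N1 were at 685, 942, 989, 486 and 1249, het hearts 5, 6, 12 and N2 at 625.4, 824, 765 and 502, and null hearts 3, 4, 8 and N3 at 1632, 93.4, 1029 and 1256. No het heart was detected, against 3 of 5 wt and 3 of 4 null hearts, and null heart 4 was the lowest heart of all. In the fit of null against het hearts (p = 0.0258, adjusted p = 0.774 in limma) every het value had been raised to the floor, so no difference is given and this p rests on the floor. With deposited values null and het hearts overlapped (exact permutation p = 0.4, adjusted p = 0.919), since null heart 4 was not raised. By the B probe set, which was not tested, only null heart 8, at 1436, exceeded the floor, and null heart N3 was at 1183 and null heart 4 at 262. The wt values were 231, 271 and 983 (hearts 1, 2 and 7) and the het values 452, 407, 927 and 259 (hearts 5, 6, 12 and N2). Over 10 hearts the A and B probe sets had r = 0.68 (permutation p = 0.027, adjusted p = 0.0674) and rho = 0.77 (permutation p = 0.0133, adjusted p = 0.0666), and r was 0.65 without the 2 hearts farthest from the median.

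Mef2d, a broadly expressed MEF2 factor, had the lowest null mean of its 3 genotypes. By aa408983_rc_g_at wt hearts 2, 7, 9 and N1 were at 2760, 4956, 4197 and 4366, het hearts 5, 6, 12 and N2 at 3471, 3543, 5013 and 3305, and null hearts 3, 4, 8 and N3 at 2295, 1621, 4274 and 3325. Null hearts 3 and 4 were below every wt and het heart, while null hearts 8 and N3 lay among them. The null to wt difference was -0.56 ± 0.27 (p = 0.0537, adjusted p = 0.9999 in limma) and null to het -0.49 ± 0.27. Within hearts 1 to 6 the null to wt difference was -0.52 (2 null against 1 wt heart), within 7 to 12 it was -0.094 (1 against 2) and within N it was -0.39 (1 against 1). The het to wt difference of -0.07 ± 0.27 turned to 0.12 with the number series in the model. A second probe set with the same accession (aa408983_rc_at) was detected in 1 heart of each genotype, wt heart 7, het heart 12 and null heart 8, all of the 7 to 12 series, and was not tested. Within each genotype its later hearts were above its earlier ones. Its correlation with the first was r = 0.70 over 12 hearts (permutation p = 0.0105, adjusted p = 0.0526) and rho = 0.57 (permutation p = 0.0544, adjusted p = 0.136), and r was 0.44 without the 2 hearts farthest from the median. The third (aa409010_rc_at) was negative in all 12 hearts with a value, from -1047 to -212, and gives no level for the gene.

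Smyd1 had its lowest mean in null hearts by both of its probe sets, each with values in 7 hearts. By u76374_s_at the null mean was only a little lower than the het mean (1716 against 1788). By u76371_s_at wt hearts 2 and N1 were at 3877 and 4381, het hearts 5 and 12 at 3675 and 4264, and null hearts 3, 4 and N3 at 3791, 3028 and 3583. Every null heart was below both wt hearts, the 1 of 12 members for which null and wt hearts did not overlap, against 2.34% of all probe sets. That share pools probe sets with differing numbers of hearts, and groups of so few hearts separate more easily. The gap between null heart 3 and wt heart 2 was narrow, and the log2 difference was -0.26 ± 0.21 (p = 0.25, adjusted p = 0.9999 in limma). An exact permutation test of 3 against 2 hearts cannot go below 0.1, and gave p = 0.2. By u76374_s_at wt hearts 2 and N1 were at 3070 and 2258, het hearts 5 and 12 at 2338 and 1238, and null hearts 3, 4 and N3 at 1030, 3289 and 828.8. Null heart 4, the lowest by the first probe set, was the highest of all 7 by the second. The difference was -0.87 ± 0.52 (p = 0.122, adjusted p = 0.9999 in limma), and the probe sets did not rank the hearts alike (r = -0.33, permutation p = 0.475, adjusted p = 0.594; rho = -0.14, permutation p = 0.783, adjusted p = 0.783).

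Foxc2, the forkhead factor of the outflow tract, had wt values of 1511, 1442, 2320, 2109 and 2093 in hearts 1, 2, 7, 9 and N1. Het hearts 5, 6, 12 and N2 were at 1931, 1734, 2203 and 2572, and null hearts 3, 4, 8 and N3 at 1075, 946, 2637 and 1838. Null hearts 3 and 4 were below every other heart and below the floor, and null heart 8 was the highest of all 13. The null to wt difference was -0.10 ± 0.22 with null hearts 3 and 4 raised to the floor, and -0.32 with the floor at 1 times the noise. The het to wt difference was 0.17 ± 0.22.

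Mean intensities ran in the order null, het, wt for the tested Mef2d probe set and both Smyd1 probe sets. For the other 9 of 12 the het mean was the highest or the lowest of the 3 genotypes. Neighbours in these orders did not differ beyond the spread between hearts by the tests above, with the separations of Hand2, Gata6, Zfpm1 and Smyd1 already given.

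**Figure D2:**
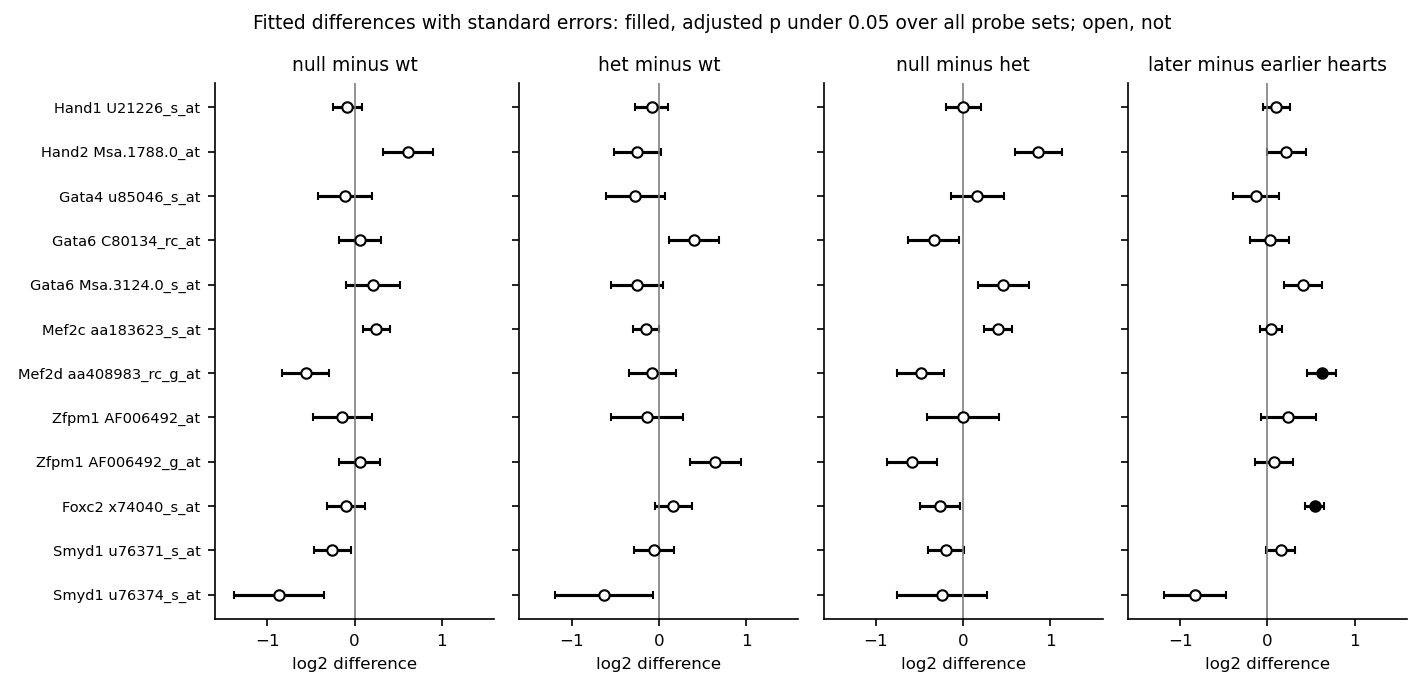
Fitted log2 differences (x axis, points) with standard errors (bars) of the 12 tested member probe sets (y axis) in 4 comparisons. Filled points have an adjusted p under 0.05 over all 4494 probe sets. No point is filled in the genotype panels, and Mef2d (0.62 ± 0.17) and Foxc2 (0.54 ± 0.11) are filled in the panel of later against earlier hearts. The Mef2c differences from het hearts rest on het values raised to the floor. The Foxc2 difference between later and earlier hearts rests in part on null values raised to it.

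Foxc2 and Mef2d were the members called between heart-number series. An earlier analysis of these data had already shown that the series differ, so this comparison describes the members and was not a planned question. With genotype in the model, Foxc2 and Mef2d were higher in the 7 hearts numbered 7 to 12 and N than in hearts 1 to 6, which makes 2 of 12 members called, against 7.14% of all probe sets (321 of 4494). At an unadjusted p under 0.05 there were 3 of 12, against 24.7%, so the members' share of nominal differences was near that of all probe sets. In all, 10 were higher and 2 lower in later hearts, with a median of 0.13 beside 0.015 over all probe sets. What the numbers stand for is not given in the sources used here.

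Foxc2 was 0.54 ± 0.11 higher in later hearts on the log2 scale (adjusted p = 0.0147 in limma). The earlier null hearts 3 and 4 had been raised to the floor, so this difference, its SE and p rest in part on the floor. With the floor at 1 times the noise it was 0.68 (adjusted p = 0.0366 in limma). Within wt the earlier hearts were at 1442 to 1511 and the later at 2093 to 2320. Within het they were at 1734 to 1931 and 2203 to 2572, and within null at 946 to 1075 and 1838 to 2637. Later hearts were thus above earlier hearts without overlap inside every genotype. Foxc2 was 1 of 2 tested members with such a separation, against 15.1% of all probe sets. The other, Smyd1 u76374_s_at, was lower in later hearts in each genotype (-0.83 ± 0.36, adjusted p = 0.186 in limma) and rests on 1 later heart a genotype. The Foxc2 call ended with quantile scaling (0.43, adjusted p = 0.171) and without the mostly blank arrays (0.54, adjusted p = 0.0596). No single heart left out ended it (0.46 to 0.59, adjusted p of 0.0113 to 0.0483).

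Mef2d was 0.62 ± 0.17 higher in later hearts (adjusted p = 0.0383 in limma). The earlier wt heart was at 2760 and the later ones at 4197 to 4956, and the null hearts were at 1621 to 2295 and 3325 to 4274. In het hearts the series overlapped, since heart N2 (3305) was below hearts 5 and 6. The call ended with quantile scaling (0.52, adjusted p = 0.109), with scaling on probe sets without blanks (0.58, adjusted p = 0.051) and with no filter (adjusted p = 0.0699). It also ended without wt heart 2 (0.59, adjusted p = 0.135), 7 (0.60, 0.0699) or N1 (0.62, 0.054), without het heart 12 (0.59, 0.0633), and without null heart 4 (0.50, 0.0975), 8 (0.52, 0.0889) or N3 (0.62, 0.0531).

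A test of whether the null to wt difference itself varied between later and earlier hearts, chosen after the values were seen, gave 0 of 12 members with an unadjusted p under 0.05, against 3.05% of all probe sets. The smallest was p = 0.124 for Gata4 (0.90 ± 0.52, adjusted p = 0.9987 in limma). Levels of cell type markers are given beside this. Over all 2733 genes, 56.8% were higher in later hearts (median 0.045), and 7.14% of all probe sets were called. All 8 tested cardiomyocyte genes were lower in later hearts (median -0.35, 1 called), or 7 of 8 with quantile scaling (median -0.12, 0 called). Of endothelial markers 4 of 7 were higher (median 0.21, 2 called), of cushion and fibroblast markers 5 of 8 (median 0.13, 1 called) and of epicardial markers 2 of 3 (median 0.08, 1 called). With quantile scaling 1 endothelial, 1 cushion and 0 epicardial markers were called. The cushion count was 3 of 8 (median -0.013) without the N hearts. Smooth muscle markers were higher in 0 of 3 (median -0.35, 0 called), or 1 of 3 with quantile scaling. Skeletal muscle markers were higher in 1 of 3 (median -0.34). Among them Myog, a skeletal muscle bHLH factor, was called lower (-0.88, adjusted p = 0.00525 in limma). Myog ran from 82 to 1561 in wt hearts, with a mean of 728 that is under the floor. It ran from -489 to 2064 in null hearts, and the het hearts were above the floor, at 1049 and 1454. Values under the floor had been raised to it, so the Myog call rests in part on the floor. Erythroid markers were higher in 3 of 7 (median -0.20), or 4 of 7 (median 0.27) without the N hearts. Of these 7, 5 had an unadjusted p under 0.05, and Alas2, the erythroid haem synthesis enzyme, was called higher (1.29, adjusted p = 0.0328 in limma), while Hba-a1, an alpha globin, was at -2.12 ± 0.73 (adjusted p = 0.0877 in limma). The Alas2 call ended with quantile scaling and with no filter. On B, the summed level of Kdr, Tie1 and Eng was 17512 to 29764 in wt, 22071 to 34797 in het and 13036 to 31933 in null hearts. Foxc2 is expressed in endothelium and mesenchyme, and the part of these cells in its values was not tested.

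**Figure D3:**
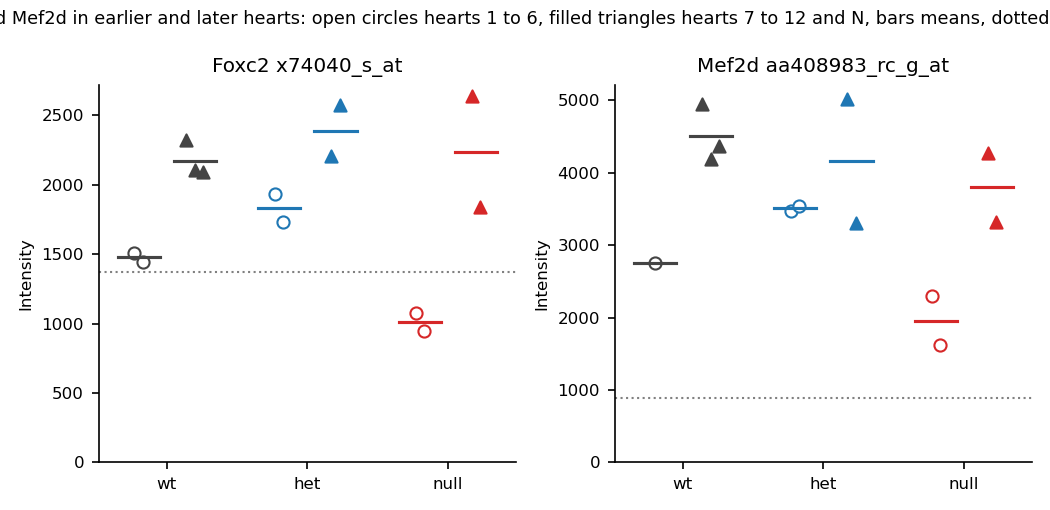
Intensity (y axis, linear from 0) of Foxc2 (left) and Mef2d (right) in each heart by genotype (x axis), with hearts 1 to 6 as open circles, later hearts as filled triangles, bars as means and the floor dotted. Later hearts lie above earlier hearts in every genotype for Foxc2, and in wt and null hearts for Mef2d.

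For the 4 member probe sets detected throughout with at least 10 values, the 3 probe sets of the same table with the highest correlation over the same hearts were found, as a description of these hearts, which share arrays and series. Mef2d followed Cdh5, the endothelial cadherin (r = 0.85 over 12 hearts, 0.73 after removing series means), Crat, a carnitine acetyltransferase (0.84 and 0.66), and Ap1b1, a clathrin adaptor subunit (0.83 and 0.66), among 707 candidates. Cdh5 also had a probe set at or under the floor in every heart with a value. Zfpm1 (AF006492_g_at) followed Cxcl12, a chemokine (r = 0.92 over 10 hearts, 0.92 after removing series means), Otud5, a deubiquitinase (0.87 and 0.93), and the unnamed l12447_s_at (0.85 and 0.88), among 1582. Gata6 on A followed Hspb1, a small heat shock protein (r = 0.88 over 10 hearts), Brd2, a bromodomain protein (0.84), and an unnamed probe set (0.83). Gata6 on B followed H1f10, a linker histone (r = 0.89 over 10 hearts), and 2 unnamed probe sets (0.88 and 0.83), among 1139.

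The wider network was read from 4 lists of genes, none of which had a member called between null and wt hearts. Of 47 other cardiac transcription factors and cofactors, 20 were annotated and 7 tested: 1 was higher and 6 lower in null hearts (median -0.13, against -0.0071 over 2733 genes). The smallest p was that of Jarid2, a chromatin regulator of ventricular development, with a wt mean of 2834 ± 460 (SD, n = 4), a null mean of 2342 ± 361 (n = 4) and a log2 difference of -0.27 ± 0.20 (adjusted p = 0.9999 in limma). In later hearts 2 of the 7 were called, against 7.14% of all probe sets. Both were higher: Foxo3, a forkhead factor (0.67, adjusted p = 0.0282 in limma), and the acetyltransferase Crebbp (0.44, adjusted p = 0.0214 in limma). Of these calls 1 was left with quantile scaling, with no filter or without the N hearts, and 0 without mostly blank arrays. Of 13 bHLH partners, inhibitors and relatives of Hand factors, 8 were tested, 2 higher and 6 lower (median -0.14). Tal1, a blood and endothelial bHLH factor, had the smallest p, at 1508 ± 769 (SD, n = 4) in wt and 1001 ± 528 (n = 3) in null hearts (-0.46 ± 0.32). The partners Tcf12 and Tcf4 were at -0.26 ± 0.21 and -0.32 ± 0.27. The 2 higher genes, Id1 and Id3, were at 0.12 ± 0.24 and 0.16 ± 0.16. Of 15 MEF2 and Smyd1 cofactors, 4 were tested, 1 higher and 3 lower (median -0.071), which quantile scaling turned to 3 higher and 1 lower (median 0.015). The 1 higher gene was Naca, whose muscle form binds Smyd1 (0.26 ± 0.17), and it had the smallest p of that list.

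Of 36 reported targets of GATA4, MEF2C, HAND factors or Nkx2.5, 21 were tested, and 16 were higher and 5 lower in null hearts (median 0.23), where 48.3% of all 2733 genes were higher. Quantile scaling kept this split with a median of 0.072. An unadjusted p under 0.05 was found for 5 of the 21, and none was called (adjusted p = 0.9999 in limma for each). Over all probe sets, where a gene can count more than once, that share was 2.4%. The list was chosen with earlier results of these data known, so these counts are no test of it. Acta1, skeletal alpha actin, averaged 16047 ± 3853 (SD, n = 4) in wt and 9783 ± 2764 (n = 4) in null hearts, a log2 difference of -0.73 ± 0.21. Cited1, a transcriptional coactivator, averaged 18225 ± 4105 (n = 4) and 12575 ± 4198 (n = 3), a difference of -0.56 ± 0.22. The other 3 were higher in null hearts. Kcne1, a potassium channel subunit, averaged 3050 ± 183 (n = 5) in wt and 3939 ± 144 (n = 4) in null hearts (0.37 ± 0.15). Tnnc1, cardiac troponin C, averaged 51324 ± 15884 (n = 4) and 75067 ± 7599 (n = 3), and Tnni3, cardiac troponin I, 33736 ± 7997 (n = 5) and 48424 ± 10302 (n = 3). The cardiomyocyte markers overlap this list, and all 8 tested were higher in null hearts (median 0.37, 0 called), or 7 of 8 with quantile scaling (median 0.20). On B, the summed level of Actc1, Myl3 and Ryr2 was 54674 to 293924 in wt, 59462 to 174361 in het and 139021 to 245131 in null hearts, so the genotypes overlapped. In later hearts 18 of the 21 targets were lower and 3 higher (median -0.27), where 56.8% of all 2733 genes were higher (median 0.045). Of the 21, Tnnc1 (-0.65, adjusted p = 0.0271) and Myl2 (-1.002, adjusted p = 0.044) were called in limma, against 7.14% of all probe sets. With quantile scaling or no filter 0 were called.

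**Figure D4:**
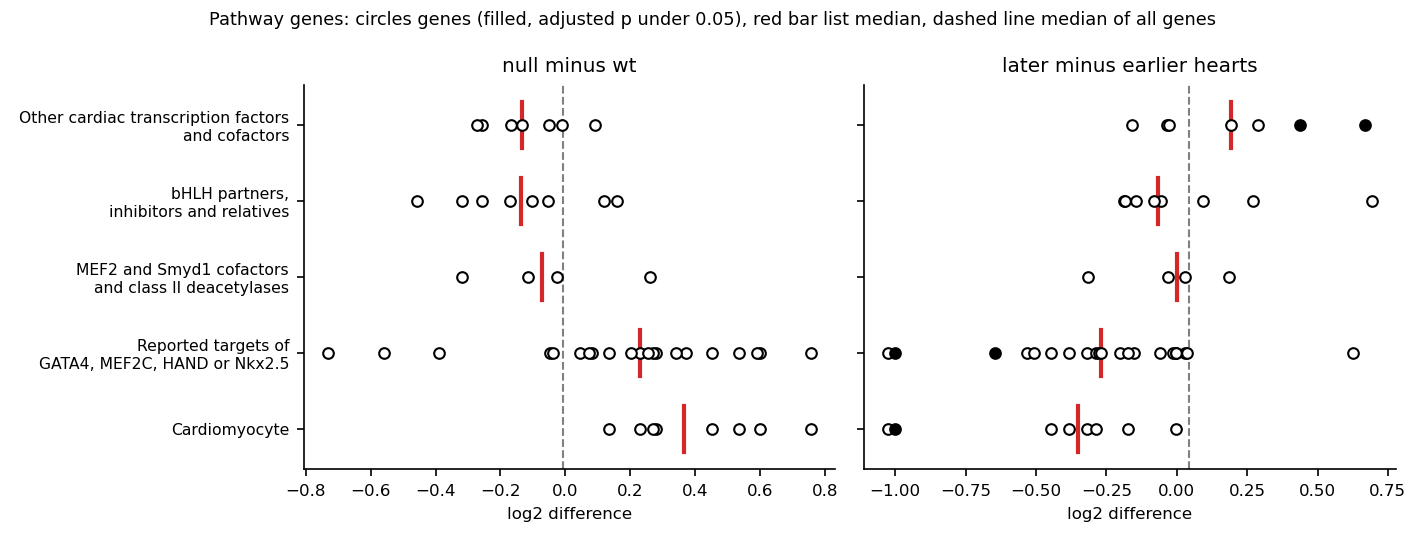
Log2 differences (x axis) of the tested genes of 4 lists around the members and of cardiomyocyte markers (y axis), null against wt (left) and later against earlier hearts (right). Circles are genes, filled where the adjusted p was under 0.05, red bars list medians and the dashed line the median of all genes. Reported targets have a median of 0.23 in null hearts and of -0.27 in later hearts.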

How the data were processed

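Total RNA of 13 hearts was hybridised to an A and a B oligonucleotide array each. The authors deposited 1 intensity per probe set and array on a linear scale, already scaled, with negative values and blank cells; the software is not given in the sources used here. Gene names came from the platform annotation, updated through RefSeq (GRCm38.p6), which matched 5551 of 5560 gene IDs on A and 1993 of 2001 on B. Blank cells were treated as missing. Noise was the root mean square of a table's negative values, and values were raised to 2 times the noise before log2. Fits used limma 3.58.1 in R 4.3.3, 1 per table over all 13 hearts, with a variance trend and Benjamini-Hochberg adjustment over the 4494 tested probe sets of both tables. The 55 control probe sets of each array were left out. Deposited values were compared by exact permutation tests. The fit was tested on simulated data. Members, lists (genes of other cell types included) and tests were chosen with earlier results of these data known. Named genes are all member probe sets, list genes with an unadjusted p under 0.05 in null against wt or else the smallest, and the 3 best correlated probe sets. Outside this rule, Tcf12, Tcf4, Id1 and Id3 were named, and further list and marker genes for the later to earlier comparison or for marker levels. Alternatives were quantile or trimmed-mean scaling, a lower floor, no filter, number series as a block, and leaving out mostly blank arrays, the N hearts or each heart in turn. Promoter windows were read from RefSeq. Genotypes share no heart number.

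Of the cell type lists not given with the members, smooth muscle had 2 of 3 tested genes higher in null than wt hearts, skeletal muscle 3 of 3, neural crest and neurons 1 of 1, and megakaryocyte and leukocyte markers 0 of 2. Endothelial markers had 1 of 7, cushion and fibroblast markers 3 of 8 and epicardial markers 0 of 3 higher. None of these genes was called between null and wt hearts in limma with the main settings. The skeletal muscle marker Tnni2 was at 1.83 ± 0.33 (adjusted p = 0.113 in limma). With the number series as a block, 1 skeletal muscle marker was called higher.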

Additional observations from a re-analysis of the deposited data

Results flagged for a closer look

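In the tested Mef2d probe set, het heart 12 stood at 5013, apart from the other 3 het hearts at 3305 to 3543. The gap to its nearest neighbour was 0.861 of the range of the 4 hearts. This was 1 of 25 genotype groups of member probe sets checked in this way, and chance marks about 1 in 20. Without this heart the later to earlier difference of Mef2d was 0.59 with an adjusted p of 0.0633 in limma.

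The Mef2c probe set on the B array entered no test, and its value of 1436 in null heart 8 was the only one above the floor. The highest wt heart was at 983. The cause of either value was not tested.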

How the results depend on the processing

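Of 888 member values under alternative settings, 819 kept their direction and their side of the threshold, 12 lost the call (the later to earlier differences of Mef2d and Foxc2, given above), 0 gained one and 57 changed sign. No value that changed sign was called. No paired analysis was possible because the genotypes share no heart number.

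The count of probe sets called between null and wt hearts was 0 with quantile scaling, with no filter (probe sets constant at the floor dropped, a choice made after seeing the data), without mostly blank arrays and without the N hearts, 2 with the floor at 1 times the noise and 4 with the number series as a block. Leaving out single hearts gave 0 to 3 (3 without wt heart 2, and 0 without wt 1, wt 7, wt N1, null 3 or null N3). Between null and het hearts the block gave 1. Between later and earlier hearts the count was 135 with quantile scaling, 198 with no filter and 192 without mostly blank arrays, and 103 (without wt heart 2) to 342 (without null heart N3) with single hearts left out.

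The following log2 differences changed sign. Quantile scaling gave 0.046 for Zfpm1 (AF006492_at) null to het, 0.011 for Hand1 het to wt, -0.065 for Hand1 null to het and 0.14 for Foxc2 null to wt, and scaling on probe sets without blanks gave -0.097 for Hand1 null to het. The floor at 1 times the noise gave 0.019 and 0.17 for Zfpm1 (AF006492_at) null to wt and null to het, and 0.074, 0.16 and -0.085 for Hand1 null to wt, het to wt and null to het. The block gave 0.12 for Mef2d and 0.047 for Zfpm1 (AF006492_at) het to wt, -0.15 for Hand1 null to het, and 0.18 and -0.26 for Gata4 het to wt and null to het. Without the N hearts, Mef2c and Zfpm1 (AF006492_at) later to earlier were -0.049 and -0.022, Mef2d and Zfpm1 (AF006492_at) het to wt 0.034 and 0.037, and Gata6 on B null to wt -0.0090. Without mostly blank arrays, Mef2d het to wt was 0.068 and Foxc2 null to wt 0.13, and on the deposited scale these were 172 and 49.3.

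With single hearts left out, null to wt ran from -0.38 to 0.049 for Zfpm1 (AF006492_at), -0.14 to 0.18 for Zfpm1 (AF006492_g_at), -0.14 to 0.24 for Gata6 on A, -0.0090 to 0.53 for Gata6 on B, -0.16 to 0.046 for Hand1, -0.28 to 0.12 for Gata4 and -0.30 to 0.015 for Foxc2. Het to wt ran from -0.25 to 0.031 for Mef2d, -0.38 to 0.037 for Zfpm1 (AF006492_at), -0.16 to 0.044 for Hand1, -0.43 to 0.051 for Hand2 and -0.46 to 0.071 for Gata6 on B. Null to het ran from -0.20 to 0.19 for Zfpm1 (AF006492_at), -0.053 to 0.072 for Hand1, -0.83 to 0.11 for Smyd1 (u76374_s_at) and -0.012 to 0.39 for Gata4. Later to earlier ran from -0.049 to 0.16 for Mef2c, -0.12 to 0.21 for Zfpm1 (AF006492_g_at), -0.17 to 0.21 for Gata6 on A, -0.024 to 0.15 for Hand1 and -0.057 to 0.33 for Hand2. The cause of these changes was not tested. Hand1 and Mef2c lay close to the floor, which limits what their intensities can show.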
